A study of Homo sapiens with 16 samples.

Results

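HeyA8 cells, a human ovarian cancer cell line, were transfected with siGGGGGC or with the non-targeting control siNT1, and their RNA, depleted of ribosomal RNA, was sequenced 24 and 48 h later. These 4 libraries of the 16 in the series, 2 with each siRNA, are described here. The sample titles name siMxy_3AB and siNT_3AB, which are taken here as siGGGGGC and siNT1. The titles do not explain these names or the tag. The 2 mock-treated HeyA8 libraries served as an untreated background, and the 4 PC3 libraries (a prostate cancer line) with the same siRNAs served as a second cell line. The labels give 1 nM for both siRNAs, while the methods of the study name a higher dose, so the dose behind these values is uncertain. The labels do not say that libraries came from separate cultures. Each siRNA had 1 library per time point, so the time points were the replicates (n = 2) and every p-value measures only the spread between these libraries.

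An siRNA is loaded into the RNA-induced silencing complex (RISC), whose Argonaute protein holds the guide strand. Positions 2 to 7 of the guide form the seed. When the seed pairs with a complementary stretch, usually in a 3′ UTR, the mRNA is repressed and degraded in the way a miRNA acts, even though the rest of the guide does not pair. The seed GGGGGC pairs with GCCCCC, and the study asked which mRNAs with this match fall when cancer cells die after siGGGGGC.

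RefSeq (GRCh38.p14) lists 2370 mature miRNA names, and matches on a single chromosome are not reported here. Outside that chromosome, 2 names carry GGGGGC at positions 2 to 7 of their sequence. They are shown because they share this seed with the siRNA. Capitals mark bases 2 to 8, and base 8 is not part of the shared seed.
hsa-miR-1237-5p: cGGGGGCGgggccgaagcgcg
hsa-miR-4488: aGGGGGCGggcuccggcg

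Sites in 3′ UTRs of genes that fell after siGGGGGC are printed next, 5′ to 3′ on the mRNA strand, with 30 bases each from GENCODE v44 on hg38 and the match in capitals. A T directly before the match makes it a 7mer-m8 site, an A directly after it a 7mer-A1 site, and both together an 8mer site. EHD2 is shown for its pair of 8mer sites, EIF5A and TGM2 for several sites in very abundant mRNAs, PES1 for an 8mer between plain 6mers, RHOC for a 7mer-m8 site, and FAM189B for a single site.
EHD2, chr19:47742165-47742194, plus strand, 8mer: ttttttgtttttGCCCCCaattctgcccat
EHD2, chr19:47742224-47742253, plus strand, 8mer: ttttttgtttttGCCCCCagttctgtccac
EIF5A, chr17:7311851-7311880, plus strand, 6mer: gaacctgcagagGCCCCCtccccgagcctg
EIF5A, chr17:7312324-7312353, plus strand, 7mer-m8: gggaggggacctGCCCCCtcctcaggcatc
EIF5A, chr17:7312354-7312383, plus strand, 8mer: tgggagggccctGCCCCCatgggctttacc
TGM2, chr20:38130174-38130203, minus strand, 7mer-A1: agcctgctgagaGCCCCCaccttgatccca
TGM2, chr20:38128829-38128858, minus strand, 7mer-A1: tgcagggctaagGCCCCCaaacatagcccc
PES1, chr22:30576751-30576780, minus strand, 6mer: gaggcccacccaGCCCCCtacctactgccc
PES1, chr22:30576737-30576766, minus strand, 8mer: cccctacctactGCCCCCattcatcctggc
PES1, chr22:30576711-30576740, minus strand, 6mer: tggctttccacaGCCCCCtcccacacagtt
RHOC, chr1:112701293-112701322, minus strand, 7mer-m8: cctggggatcttGCCCCCtttgaccttccc
FAM189B, chr1:155247703-155247732, minus strand, 7mer-A1: ttgggaccagcaGCCCCCagcatcctcttg

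The 4 libraries held 31790209 (siNT1, 24 h), 29128446 (siNT1, 48 h), 31255897 (siGGGGGC, 24 h) and 30570998 (siGGGGGC, 48 h) counted reads, so depth differed little between them. Counts are given as normalized counts, scaled by the TMM method over the 6 HeyA8 libraries used, and fold changes are log2 values of siGGGGGC over siNT1. A gene was called at an adjusted p under 0.05 in edgeR's quasi-likelihood test with time point as a term. The labelled cell type was checked on marker genes. VIM, the mesenchymal filament protein, had 164330 to 193590 normalized counts in the 4 libraries, and KRT8 and PAX8, a keratin and an ovarian and Müllerian transcription factor, were also abundant. The epithelial cadherin gene CDH1 was nearly absent, with at most 1.08 normalized counts. Of the 9 prostate markers, 6 were at 0 in all 4 libraries, among them KLK3, and of the 10 blood and endothelial markers 4 were at 0, among them PTPRC.

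After siGGGGGC 769 genes were called lower and 411 higher among 13312 tested, which is 5.78% lower and 3.09% higher. At least 2-fold changes made up 411 of the lower and 154 of the higher genes, and at least 4-fold changes 54 and 21. Among genes called lower, 768 were lower at both time points, and among genes called higher 411 were higher at both. The exception, named after its values were seen, was GJA1, a gap junction protein, with a log2 fold change of 0.014 at 24 h and -1.38 at 48 h. The change was larger at 48 h for 670 of the lower and 391 of the higher genes. Their median log2 fold change went from -0.71 at 24 h to -1.33 at 48 h for lower genes, and from 0.56 to 1.17 for higher genes. Over all genes with a mean above 100 normalized counts (10531 genes), the SD of the log2 ratio of siGGGGGC to siNT1 was 0.369 at 24 h and 0.681 at 48 h. Between the siNT1 libraries of the different time points it was 0.283. Against mock, 736 of the lower genes were below mock and siNT1 at both time points, and 379 of the higher genes were above them.

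These counts rest on 1 residual degree of freedom and on how the spread is shared. With the mock libraries added to the fit, 347 genes were lower and 130 higher, and with all 8 HeyA8 libraries, siCAG included, 0 genes were called by edgeR (1352 at an unadjusted p under 0.05), while DESeq2 on the 4 libraries called 501 lower and 216 higher. Because the scaling is relative, a change that affected all mRNAs alike could not be seen, and in these bulk samples fewer cells of a kind and less RNA per cell cannot be told apart.

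**Figure D1:**
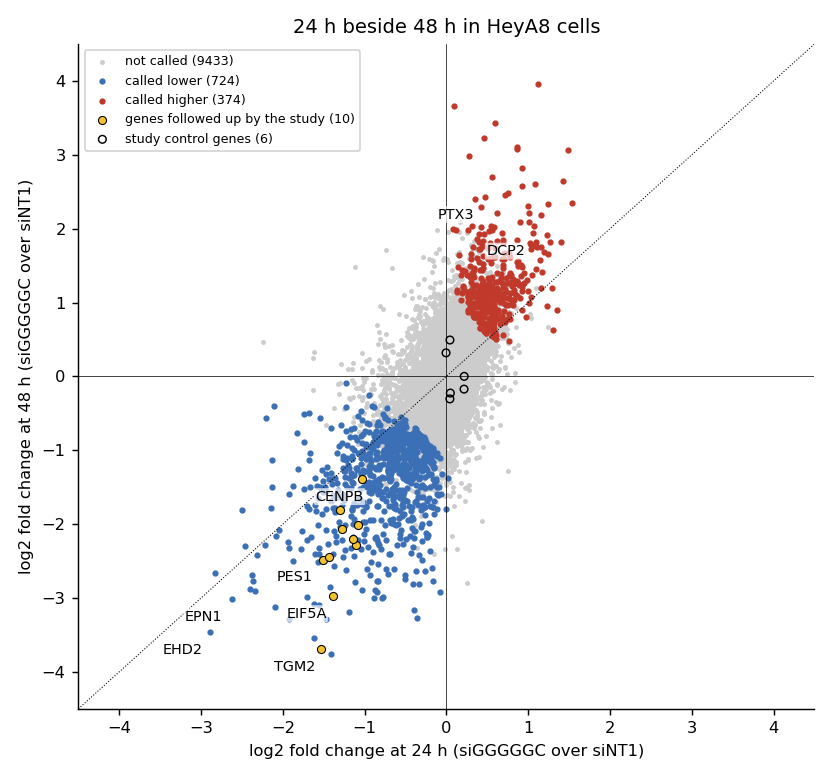
Log2 fold change of siGGGGGC over siNT1 at 24 h (x axis) and at 48 h (y axis) for genes with a mean over 100 normalized counts, coloured by their call. Most called genes lie farther from 0 at 48 h than at 24 h (the dotted line marks equal change), the 10 genes followed up by the study (yellow) lie in the lower left, and its 6 control genes (open circles) lie near 0.

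Among genes with a mean over 1000 normalized counts, 446 were called lower at both time points, and 307 of these had GCCCCC in the 3′ UTR. The 12 of these with GCCCCC that fell most are described first, beginning with genes of membrane traffic. EHD2, an ATPase of caveolae, fell most. It had 4338 and 4791 normalized counts after siNT1 at 24 and 48 h, and 582 and 434 after siGGGGGC, with 3460 and 3600 in mock. Its log2 fold change was -3.18 (standard error 0.20, edgeR adjusted p = 4.37e-13), a 9.09-fold decrease, and its 3′ UTR on chromosome 19 holds 7 GCCCCC. EPN1, an endocytic adaptor of clathrin-coated pits, went from 4474 and 3771 to 725 and 466 normalized counts (log2 fold change -2.82, standard error 0.20). Only 1 of its 7 matches lies within the gene boundaries used for counting, because the longest annotated 3′ UTR runs far past them. SH3GL1, an endophilin that bends endocytic membranes, went from 4331 and 4391 to 1176 and 779 (log2 fold change -2.19, standard error 0.20). For all 3 genes both siGGGGGC libraries lay below both siNT1 libraries, as they did for 25.4% of all genes tested.

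The next are genes of the cytoskeleton and 2 very abundant mRNAs. FSCN1 (fascin), which bundles actin filaments, went from 4890 and 3339 normalized counts after siNT1 to 928 and 455 after siGGGGGC, a log2 fold change of -2.64 (standard error 0.20). ARHGDIA, the inhibitor that keeps small GTPases in the cytosol, went from 13995 and 13709 to 3275 and 1569, a log2 fold change of -2.61 (standard error 0.20). Both were thus already low at 24 h and lower still at 48 h. TGM2, transglutaminase 2, which crosslinks proteins, was among the most abundant of these mRNAs. It had 57618 and 59955 normalized counts after siNT1, 50172 and 47427 in mock, and 19873 and 4634 after siGGGGGC (log2 fold change -2.62, standard error 0.28). EIF5A, the translation factor that carries hypusine, had 36514 and 37239 after siNT1 and 13976 and 4743 after siGGGGGC (log2 fold change -2.18, standard error 0.23). Both siGGGGGC values of TGM2 and EIF5A lay below every siNT1 and mock value, but they differed from each other several fold between the time points. Reads of EIF5A may be shared with its 3 annotated pseudogenes.

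The remaining genes have roles in metabolism and signalling. IMPDH1, which makes guanine nucleotides, went from 2741 and 2656 to 722 and 272 normalized counts (log2 fold change -2.59, standard error 0.24), and has 10 annotated pseudogenes that could take part of its reads. AKT1S1 (PRAS40), an inhibitor within the mTORC1 complex, went from 3212 and 2648 to 618 and 408 (log2 fold change -2.54, standard error 0.20). ATP6V0C, the ring subunit of the proton pump of lysosomes, went from 3120 and 2414 to 627 and 452 (log2 fold change -2.37, standard error 0.20). The log2 fold changes at 24 and 48 h were -2.38 and -2.69 for AKT1S1 and -2.31 and -2.41 for ATP6V0C, closer to each other than those of IMPDH1 (-1.92 and -3.28). TMEM189, a plasmanylethanolamine desaturase, had a log2 fold change of -2.63 and FAM189B one of -2.58. FAM189B is listed on an alternate contig in the counted annotation, so its position was taken from GENCODE. Across the 12 genes the edgeR adjusted p lay between 4.37e-13 and 2.88e-08.

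**Figure D2:**
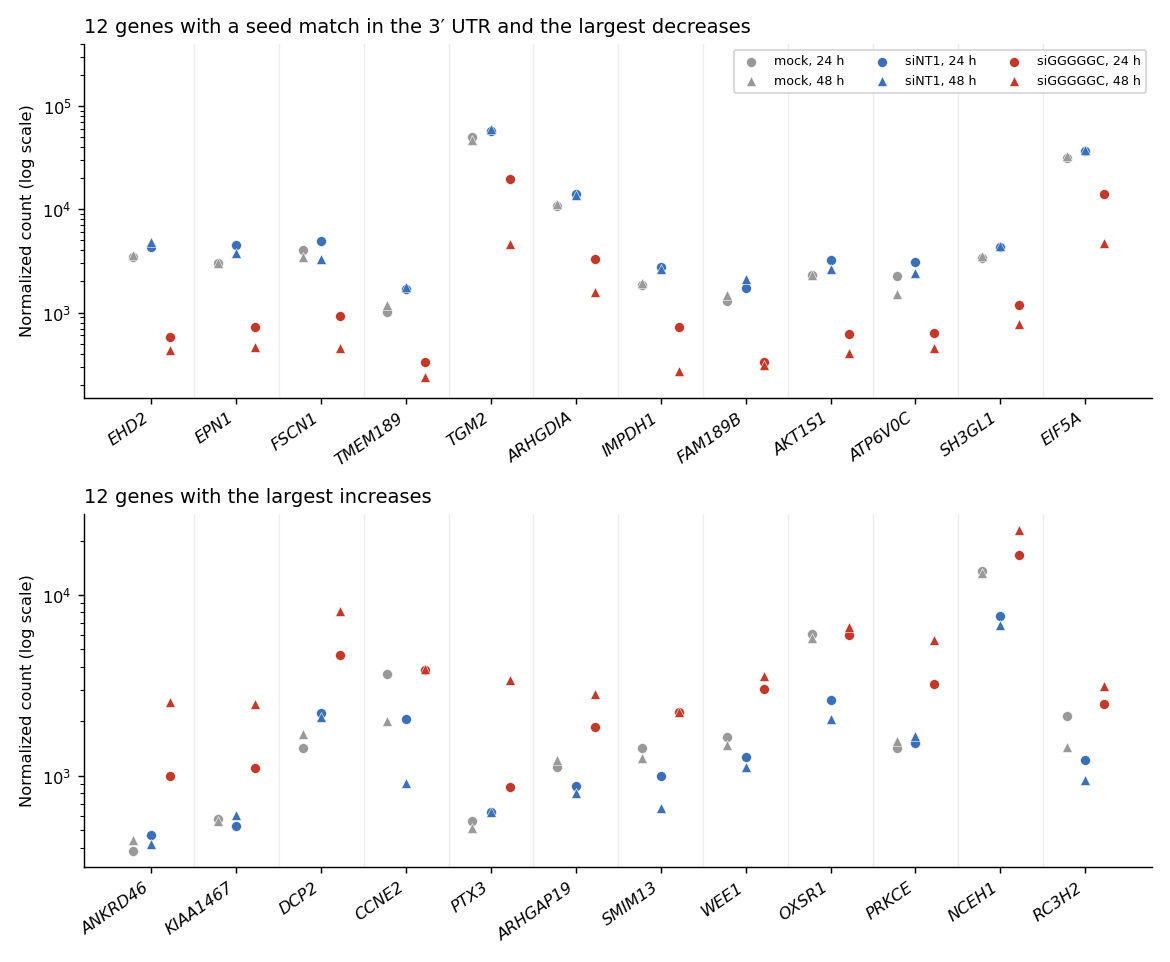
Normalized counts (log scale) in each HeyA8 library for the 12 abundant genes with a seed match that fell most (top) and the 12 that rose most (bottom), with circles for 24 h and triangles for 48 h. In the top panel the siGGGGGC points (red) lie below all mock (grey) and siNT1 (blue) points of the same gene. In the bottom panel they lie above all siNT1 points, while the mock points of OXSR1 lie close to them.

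The study followed up 10 genes that fell in HeyA8 cells, and all 10 were called lower here. It had chosen them for their decrease after this siRNA in HeyA8 cells. The study describes a further HeyA8 data set and names a supplementary figure as the use of the present series. It does not say directly whether these libraries took part in the choice, so the direction of the 10 genes is given as a description. Their median log2 fold change was -1.69, from -2.62 for TGM2 to -1.21 for CENPB, which binds centromeric DNA. By role, POLR2E and POLR2K are subunits of RNA polymerases. POLR2E had 5180 and 5136 normalized counts after siNT1 and 1915 and 945 after siGGGGGC (log2 fold change -1.94, standard error 0.20). POLR2K had 2726 and 2394 after siNT1 and 1109 and 684 after siGGGGGC (log2 fold change -1.56, standard error 0.20). PES1, needed to make the large ribosomal subunit, went from 4922 and 5057 to 1734 and 904 (a 3.99-fold decrease, standard error 0.20 on the log2 scale). APEX1, the main endonuclease of base excision repair, had a log2 fold change of -1.69, and HMGA1, an architectural chromatin protein with 7 annotated pseudogenes, one of -1.55. RHOC, a small GTPase of cell migration, had -1.68, and PPP1R14B, an inhibitor of protein phosphatase 1, -1.68. None of the 10 had overlapping groups, as for 25.4% of all genes in this direction, and each fell further at 48 h than at 24 h.

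The 6 genes the study used as controls have 0 GCCCCC in the 3′ UTR and none was called. Apart from the reference gene GAPDH, the study picked them for their small change after this siRNA, so this too is a description. Without the 24 h siGGGGGC library VAMP3 was called higher (0.48, adjusted p = 6.64e-05 in edgeR) and PPIL1 lower (-0.32, adjusted p = 0.0179). With all 4 libraries the log2 fold changes of the 6 genes lay between -0.14 (PPIL1, a spliceosomal isomerase) and 0.26 (VAMP3, a vesicle fusion protein). Their edgeR adjusted p-values lay between 0.423 and 0.976. GAPDH, the glycolytic enzyme used as a reference gene, had 234430 and 250020 normalized counts after siNT1 and 233700 and 311820 after siGGGGGC.

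Of the abundant genes lower at both time points, 133 had an annotated 3′ UTR without GCCCCC. The decreases at the head of this group were smaller and came mostly at 48 h. EPHB1, an ephrin receptor, had 1808 and 1901 normalized counts after siNT1 and 1267 and 283 after siGGGGGC (log2 fold change -1.61, standard error 0.30). PPP2R3A, a regulatory subunit of protein phosphatase 2A, had 4303 and 5240 after siNT1 and 3317 and 847 after siGGGGGC (log2 fold change -1.50, standard error 0.28). SPHK1, which makes sphingosine 1-phosphate, TMEM158 and TRIM55 followed with log2 fold changes of -1.46, -1.44 and -1.42. TMEM158 was the exception in time, with -1.27 at 24 h and -1.61 at 48 h, whereas TRIM55 had -0.26 and -2.64. EPHB1, PPP2R3A and TRIM55 were not called by DESeq2 or when the mock libraries were added, and SPHK1 was not called in the latter.

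Of the abundant genes, 233 were called higher at both time points, and the 12 that rose most included genes of mRNA turnover, the cell cycle and kinase signalling. ANKRD46 led them with 470 and 417 normalized counts after siNT1, 383 and 443 in mock, and 994 and 2548 after siGGGGGC (log2 fold change 1.84, standard error 0.27, edgeR adjusted p = 8.46e-06). DCP2, the enzyme that removes the cap of mRNAs before decay, had 2219 and 2124 after siNT1 and 4635 and 8122 after siGGGGGC (log2 fold change 1.49, standard error 0.20). WEE1, the kinase that holds CDK1 inactive before mitosis, had 1270 and 1124 after siNT1, 1647 and 1474 in mock, and 3014 and 3547 after siGGGGGC (log2 fold change 1.45, standard error 0.19). The siGGGGGC values of these 3 genes lay above every siNT1 and mock value, and both siGGGGGC libraries lay above both siNT1 libraries for 26.3% of all genes tested. PRKCE, a calcium-independent protein kinase C, went from 1510 and 1653 to 3228 and 5618 (log2 fold change 1.43, standard error 0.19). PTX3, a secreted pattern-recognition protein, rose mostly at 48 h, from 632 to 3407, with 627 and 869 at 24 h, and was not called by DESeq2 or with mock added.

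For several of these genes the siNT1 values lay below those of mock. OXSR1, a kinase of cell volume control, had 2629 and 2066 normalized counts after siNT1, 6012 and 6668 after siGGGGGC, and 6071 and 5787 in mock. CCNE2, cyclin E2, had 2064 and 908 after siNT1, 3846 and 3888 after siGGGGGC, and 3639 and 2010 in mock. With mock as the control, 7 of the 37 genes in these 4 groups (the 10 followed up, the 12 and 5 lowered and the 12 risen, KIAA1467 included, with 2 in common) were not called, among them the risen genes OXSR1, CCNE2, NCEH1 (a cholesteryl ester hydrolase) and RC3H2 (an RNA-binding ubiquitin ligase). OXSR1 and SMIM13 carry CGACTA, the match to the seed of siNT1, in the 3′ UTR, as do EPN1, POLR2E and HMGA1 among the lowered genes. ARHGAP19 and SMIM13, which rose, carry GCCCCC.

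Genes that fell carried the match to the seed more often than others. Of the genes called lower that have an annotated 3′ UTR, 494 of 742 (66.6%) had GCCCCC, against 92 of 398 called higher (23.1%) and 3888 of all 12096 tested (32.1%). The share of genes called lower rose with the number of GCCCCC, from 3.02% of 8208 genes with 0 to 6.54% with 1, 14.6% with 2, 21.5% with 3 and 27.6% with 4. It was 35.8% of 81 genes with 5, 34.5% of 55 with 6 and 43.2% of 81 with 7 or more. The share called higher was 3.73% with 0 and lay between 1.23% (7 or more) and 3.70% (5) in the other groups, with no steady order. The median log2 fold change was 0.044 with 0, -0.044 with 1, -0.15 with 2, -0.23 with 3 and with 4, -0.54 with 5, -0.68 with 6 and -0.57 with 7 or more. At 24 h alone the genes with 7 or more had a median of -0.57, and at 48 h one of -0.73. Genes with exactly 1 match had medians of -0.036 for a 6mer, -0.089 for a 7mer-A1, -0.0083 for a 7mer-m8 and -0.092 for an 8mer site, so the medians did not follow the length of the match. The shares called lower were 5.91%, 6.49%, 7.36% and 7.24% in the same order.

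Genes with more matches also have 3′ UTRs richer in G and C, with a median GC content of 39.0% for 0 and 57.2% for 7 or more, and longer ones. Genes called lower had a median 3′ UTR GC content of 54.1% and genes called higher 38.6%, against 42.2% for all tested. The shift of the median between genes with and without GCCCCC was -0.15 over all genes, and within 4 groups of genes of about equal size by GC content it was -0.089, -0.056, -0.088 and -0.21 from the poorest to the richest. Within the richest group 20.2% of genes with GCCCCC and 6.39% without were called lower. Within 4 such groups by length the shift was -0.27, -0.26, -0.19 and -0.13 from the shortest to the longest 3′ UTRs.

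The 5 other orders of the same bases gave the same direction over all genes, with shifts from -0.14 for CCCCGC to -0.069 for CCCGCC, and many genes hold several of these 6mers. At 24 h alone CGCCCC (-0.16) and CCCCGC (-0.15) were shifted slightly more than GCCCCC (-0.14). Among genes without GCCCCC the shifts of the other orders were smaller, from -0.041 for CGCCCC to 0.0052 for CCCCCG. Among genes with none of the other orders, 1177 with GCCCCC had a median of -0.070 against 0.044 for 6234 without, a shift of -0.115. Of these 1177 genes 9.01% were called lower, against 2.78% of those without.

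Genes with the seed match of the control siRNA were examined in the same way. The 389 genes with CGACTA had a median log2 fold change of 0.10 after siGGGGGC over siNT1, against -0.00017 for the others, and 9.25% of them were called higher, against 3.09% of the others, while 3.60% were called lower, against 6.22%. In siNT1 against mock these genes were shifted by -0.11 at 24 h and -0.085 at 48 h, and in siGGGGGC against mock by -0.019 and -0.0010. For GCCCCC the shift against mock was -0.071 at 24 h and -0.15 at 48 h, while in siNT1 against mock it was 0.081 and 0.035. All of these medians compare groups of genes in single libraries or in the 2 libraries of each siRNA, and genes are not replicates.

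**Figure D3:**
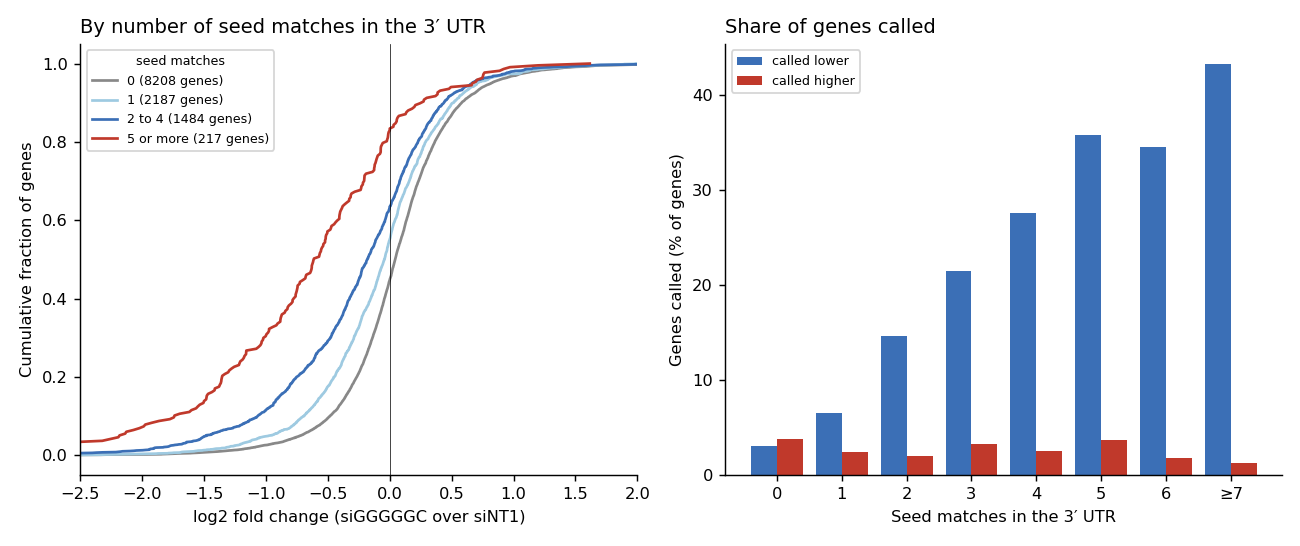
Left, cumulative fraction of the 12096 tested genes with an annotated 3′ UTR (y axis) against their log2 fold change (x axis), by the number of matches to the siGGGGGC seed. The curves move to the left from 0 matches to 5 or more (217 genes). Right, share of genes called lower (blue) and higher (red) by number of matches, where the share called lower goes from 3.02% to 43.2%.

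Genes of the silencing machinery itself were measured next. Argonaute proteins (AGO1 to AGO4) hold the guide and TNRC6 proteins recruit the enzymes that shorten the mRNA tail. Of 13 genes of RISC and miRNA processing tested, 5 were called higher (38.5%, beside 3.09% of all genes) and 1 lower (7.69%, beside 5.78%), and the median log2 fold change was 0.35, against 0.00041 for all genes tested. AGO4 had 239 and 220 normalized counts after siNT1 and 406 and 692 after siGGGGGC (log2 fold change 1.20, standard error 0.29). TNRC6C rose by 0.85 and TNRC6B by 0.79. TNRC6A, the most abundant of the list, went from 4958 and 4957 to 6906 and 9072 (log2 fold change 0.67, standard error 0.18). AGO2, the Argonaute with slicer activity, named after its value was seen, rose by 0.70 (standard error 0.18). DROSHA, the nuclease that starts miRNA processing, fell by 0.79, and its 2133 and 2063 normalized counts after siNT1 compared with 1736 and 846 after siGGGGGC. With mock added to the fit 2 members of the list were higher and 0 lower.

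Genes of transcription, ribosomes and protein turnover are to be read beside 5.78% lower and 3.09% higher of all genes. Of 31 RNA polymerase subunits, 4 fell (12.9%) and 0 rose (median -0.080), and all 4, POLR2E, POLR2K, CD3EAP and POLR3D (the last named after its value was seen), have GCCCCC. With mock added 3 were lower and with mock as the control 2. POLR2A, the largest subunit of RNA polymerase II and the most abundant member, had a log2 fold change of 0.20 and was not called. Of 40 ribosome biogenesis genes 4 fell and 0 rose, led by PES1, RRP1B (-1.14) and MYBBP1A (-0.84), while 37 of the 40 had a value below 0, against 6649 of all 13312 genes, and the median was -0.28. Their median was -0.049 at 24 h and -0.49 at 48 h. Only 2 of the 40 were lower with mock added or as the control. Of 78 cytosolic ribosomal proteins 71 had a value below 0 (median -0.13) and only RPL13 was called (0 with mock added), with 37738 and 25414 normalized counts after siNT1, 19507 and 21392 after siGGGGGC, and 24112 and 20595 in mock. The siGGGGGC values were thus near those of mock, and 6 pseudogenes are annotated. Among 42 translation factors 3 fell (7.14%) and 2 rose (4.76%), shares near those of all genes. EIF4EBP1, the inhibitor of cap-dependent translation that mTORC1 controls, fell by 1.19 on the log2 scale and its relative EIF4EBP2 rose by 0.77. EEF1A1, the elongation factor with the highest count of the list, had -0.10 and was not called. Of 36 proteasome subunits 0 were called, with a median of 0.097.

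Adhesion and matrix genes follow. Of 12 integrins 3 fell and 0 rose, which is 25.0% lower beside 5.78% of all genes. ITGA5, the alpha chain of the fibronectin receptor, had 8872 and 10085 normalized counts after siNT1, 5968 and 6205 in mock, and 3669 and 3009 after siGGGGGC (log2 fold change -1.51, standard error 0.18). ITGA6, a laminin receptor chain, had -0.82 and ITGA3 -0.62. Among 27 collagens, laminins and related matrix genes, 2 fell and 0 rose, a share of 7.41% near that of all genes, TNC (tenascin C, -1.39) among them, and FN1 (fibronectin) had -0.47 and was not called. With mock added 0 of the 27 and 1 of the 12 integrins were called.

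Signalling targets moved in both directions, beside 3.09% higher and 5.78% lower of all genes. Of 23 MAPK feedback and immediate early genes 6 rose (26.1%) and 2 fell (8.70%), with a median of 0.29. The median was 0.681 without the 24 h siGGGGGC library and 0.0943 without the 48 h one. DUSP6, a phosphatase that ERK signalling induces and that acts back on ERK, had 1151 and 1366 normalized counts after siNT1 and 1543 and 6695 after siGGGGGC (log2 fold change 1.36, standard error 0.25). EGR1 (2.12) and DUSP4 (1.61) rose from low counts. EGR1 had 39.5 and 8.61 normalized counts after siNT1 and 47.4 and 193 after siGGGGGC. ETV4, a transcription factor downstream of ERK, fell by 1.02 on the log2 scale and has GCCCCC, as 1 of the 2 fallen genes. With mock added to the fit 0 were higher and 1 lower. Of 23 YAP and TEAD targets 5 rose (21.7%) and 3 fell. With mock added 2 were higher and 1 lower. CTGF, a secreted matrix-associated protein, had 15455 and 12291 normalized counts after siNT1 and 22678 and 48495 after siGGGGGC (log2 fold change 1.26, standard error 0.22). NUAK2, a kinase, rose by 1.78 from 81.0 and 102 normalized counts. Of the 3 that fell, RBMS3, an RNA-binding protein (-1.15), and F3, tissue factor (-1.05, with overlapping groups), have no GCCCCC. AXL, a receptor tyrosine kinase with GCCCCC, fell from 37449 and 48505 to 20701 and 10791 (log2 fold change -1.52, standard error 0.21).

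Among 17 NF-kB and cytokine genes, CXCL1, a neutrophil chemokine, fell by 1.37 on the log2 scale, and ICAM1, a leukocyte adhesion molecule, and BIRC3, an inhibitor of apoptosis, rose by 1.69 and 1.35. ICAM1 had 60.7 and 65.7 normalized counts after siNT1 and 73.6 and 526 after siGGGGGC, so its change came at 48 h. In the list 11.8% were higher and 5.88% lower, beside 3.09% and 5.78% of all genes, but 0 were higher with mock added and 1 with DESeq2. Of 23 interferon and RNA sensing genes 6 had a value below 0, and the median was 0.32 (0.24 at 24 h and 0.52 at 48 h). Only IFI44L was called, and 0 of the list were with DESeq2, RLE size factors, mock added or mock as the control. IFI44L was lower by 2.40 and at 9.68 and 2.98 normalized counts after siGGGGGC.

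Cell cycle and death genes are given next. The share called higher was 6.25% of the E2F list, 13.5% of the mitosis list, 15.4% of the G1 list, 6.67% of the p53 list and 9.09% of the apoptosis list, beside 3.09% of all genes. Of 48 E2F targets and replication genes 3 rose and 0 fell. RRM2, the regulated subunit of ribonucleotide reductase, had 10026 and 7443 normalized counts after siNT1, 16994 and 16470 in mock, and 20045 and 16592 after siGGGGGC. Both RRM2 and RPA1, which binds single-stranded DNA, rose against siNT1 (1.07 and 0.89), but with mock as the control 0 of the 48 were called. Of 37 mitosis genes 5 rose and 1 fell, the latter being FOXM1 (-0.58), the transcription factor of G2/M genes. CDC25C, the phosphatase that opposes WEE1, rose by 0.89, and TOP2A, which untangles chromosomes, by 0.58. With mock as the control 0 of the 37 were called. Of 13 G1 cyclins, CDKs and inhibitors, CDKN1B (p27, 0.66) and CCND3 (cyclin D3, 0.64) rose, and CCND1 had -0.027. For CDKN1B the groups overlapped, with 1637 and 2022 normalized counts after siNT1 and 1872 and 4424 after siGGGGGC. With mock added to the fit 0 of the 13 were called. Of 30 p53 targets TP53INP1 (1.16) and ZMAT3 (0.65) rose and none fell, and 0 were called with mock added or as the control. Of 33 apoptosis genes 3 rose, namely BIRC3, PMAIP1 (the BH3-only protein NOXA, 0.89) and BAK1 (a mitochondrial pore protein, 0.83), and none fell. With mock added 1 of these was called. PMAIP1 had 1315 and 961 normalized counts after siNT1 and 1655 and 2659 after siGGGGGC.

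Stress and lipid genes are to be read beside the same shares of all genes, 5.78% lower and 3.09% higher. Of 31 genes of the integrated stress and unfolded protein responses, XBP1 (-0.86) and HSPA5 (the ER chaperone BiP, -0.58) fell, while ATF3 (1.29), SLC7A11 (the cystine transporter, 1.03) and VLDLR (0.92, with overlapping groups) rose. These are 6.45% lower and 9.68% higher. With mock added to the fit 0 of the 31 were called, and DESeq2 called 1 lower and 1 higher. SLC7A11 had 3572 and 3401 normalized counts after siGGGGGC, 2453 and 1170 after siNT1, and 4340 and 2586 in mock. Of 28 genes of sterol and fatty acid synthesis 3 fell (10.7%) and 0 rose, and all 3 have GCCCCC. With mock as the control 1 was lower and 1 higher. FASN, the fatty acid synthase, had 15549 and 27877 after siNT1 and 5274 and 5266 after siGGGGGC (log2 fold change -1.99, standard error 0.19), MVK (mevalonate kinase) had -1.07 and SREBF1, the transcription factor of lipid synthesis, -0.79. SCD, the most abundant of the list, had -0.23 and was not called.

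Markers of cell identity moved as well. The share called lower was 50.0% of the epithelial and 9.09% of the mesenchymal markers tested, beside 5.78% of all genes. None was called higher, beside 3.09% of all genes. Of 17 epithelial markers 6 had enough counts to be tested and 3 fell, PAX8 (-1.16), KRT8 (-0.79) and KRT18 (-0.70), the keratins having 51 and 68 annotated pseudogenes. With mock added or as the control 1 of the list was lower. OCLN, a tight junction protein named after its values were seen, went the other way, from 51.1 and 147 normalized counts after siNT1 to 122 and 235, with overlapping groups. The summed normalized counts of this list were 53521 and 51018 after siNT1 and 44209 and 23829 after siGGGGGC. Of 12 mesenchymal markers 11 were tested and only SNAI2 (the repressor Slug) was called, with 800 and 501 normalized counts after siNT1 and 288 and 50.7 after siGGGGGC (log2 fold change -2.31, standard error 0.33). VIM had -0.20 and was not called. Neither the prostate nor the blood and endothelial lists gave a call, with 3 and 2 members tested. The part of these markers in the other gene groups was not tested.

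The counts of called members changed when 1 siGGGGGC library was left out of the fit with mock, as did those of all genes. Without the 24 h library 3321 genes were lower and 3147 higher of 13981, and without the 48 h library 1178 were lower and 646 higher of 13857. In the order of these 2 settings, the RISC list had 3 lower and 9 higher, then 0 and 4. The RNA polymerase list had 13 lower and 4 higher, then 3 and 1, and the translation list 12 and 4, then 4 and 1. Ribosome biogenesis had 31 lower and 0 higher, then 4 and 0, and ribosomal proteins 25 and 0, then 5 and 0. These lists kept more calls in the direction they had with both libraries, but calls were frequent among all genes in these settings too. The proteasome list, without calls before, had a median log2 fold change of 0.183 without the 24 h library and 0.0363 without the 48 h library.

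Mitosis genes had 7 lower and 13 higher without the 24 h library and 0 and 16 without the 48 h library, and apoptosis genes 4 and 12, then 1 and 3. MAPK genes had 4 lower and 15 higher, then 6 and 6, and E2F genes 12 and 11, then 0 and 5. The p53 targets had 2 lower and 10 higher, then 6 and 1, and the G1 genes 2 and 4, then 1 and 0. The YAP list had 8 lower and 6 higher, then 8 and 4, the NF-kB list 4 and 7, then 3 and 1, and the interferon list 2 and 11, then 0 and 2. The stress response list had 11 lower and 10 higher, then 6 and 1. Integrins had 4 lower and 3 higher, then 3 and 0, the matrix list 7 and 6, then 6 and 2, and the sterol list 11 and 4, then 5 and 0. Epithelial markers had 4 lower and 1 higher, then 1 and 1, and mesenchymal markers 4 and 3, then 3 and 0. With 1 library left out, the balance of calls turned or was lost for the p53, G1, YAP, NF-kB and interferon lists. So it was for the stress response, E2F and MAPK lists and the epithelial markers. The mitosis, apoptosis, sterol, integrin, matrix and mesenchymal counts leaned the same way in both settings. Calls were also frequent among all genes there, so these counts are no result about the lists. In both settings siGGGGGC had a single library, and the spread came from siNT1 and mock alone.

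**Figure D4:**
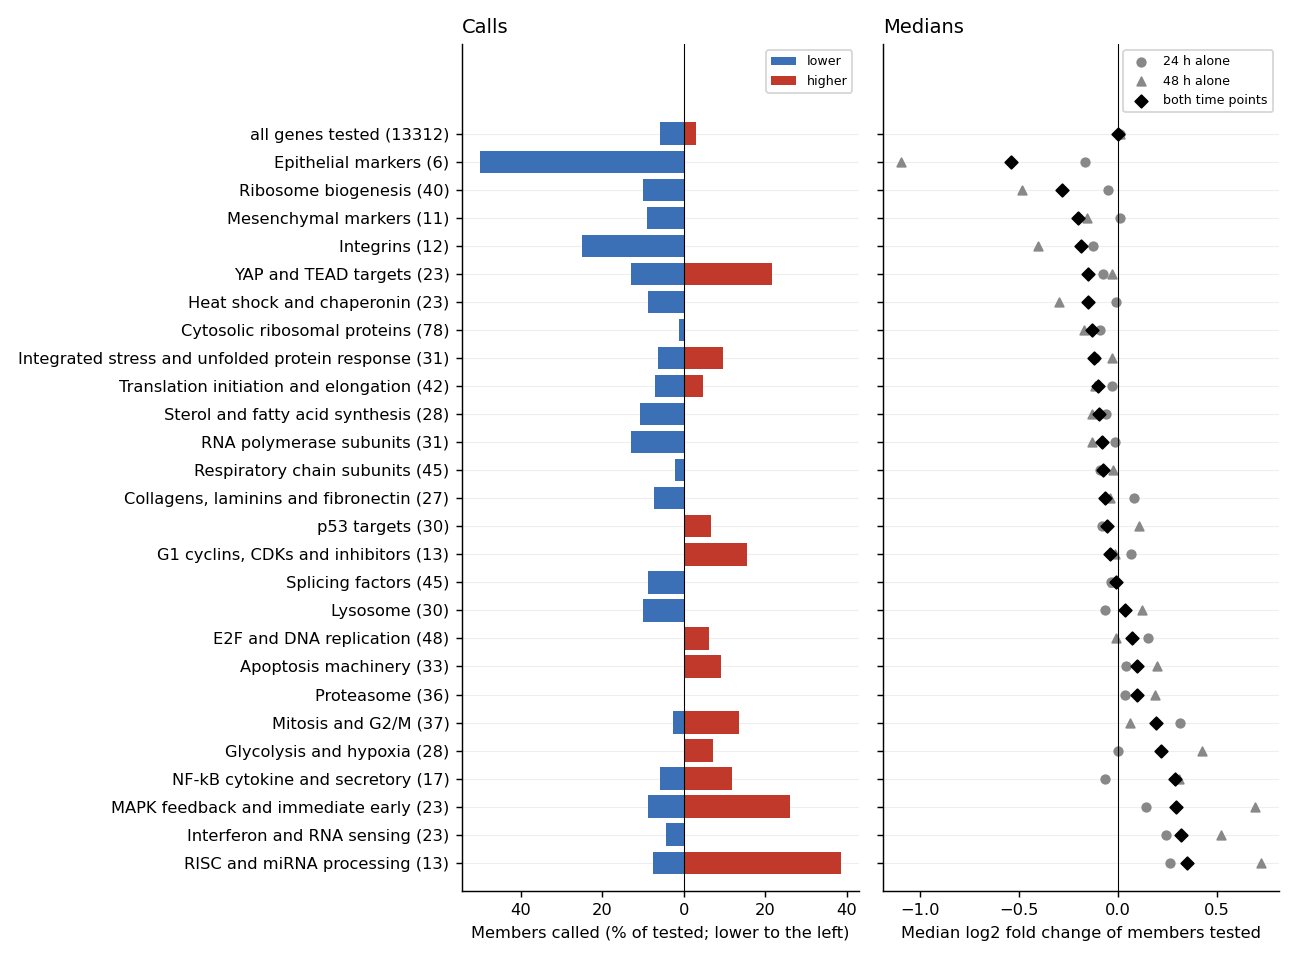
Left, share of tested members called lower (to the left) and higher (to the right) in the gene lists shown, with the number tested in brackets and all 13312 genes at the top. Right, the median log2 fold change of the members over both time points (diamonds) and at 24 h (circles) or 48 h (triangles) alone. The RISC list has a median of 0.35 and the ribosome biogenesis list one of -0.28.

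The same comparison in PC3 cells used other libraries but the same control siRNA, so effects of siNT1 itself were not separated. There 363 genes were lower (2.48% of 14648 tested) and 75 higher (0.512%). Of the 745 genes that were lower in HeyA8 cells and tested in PC3, 721 had a log2 fold change below 0 in PC3, and the median was -0.89 in PC3 beside -1.04 in HeyA8 over all 769. Of the 401 genes that were higher in HeyA8 and tested in PC3, 300 were above 0 and 101 (25.2%) below 0 in PC3. Of all genes tested in both lines 50.5% were below 0 in PC3. The calls shared were 157 lower genes, 21.1% of the 745 and 43.3% of the 363, and 38 higher genes, 9.48% of 401 and 50.7% of 75. Only ID1, an inhibitor of differentiation factors named after its values were seen, was called lower in HeyA8 (-0.59) and higher in PC3 (1.32). The difference was -1.90 (standard error 0.29, unadjusted p = 0.000203 and adjusted p = 0.296 in edgeR).

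All 10 genes followed up in HeyA8 were also lower in PC3, with log2 fold changes from -2.35 for HMGA1 to -1.35 for PES1. Of the 12 lowered genes with GCCCCC, 11 were called in PC3. EHD2 was not, at -2.68 (standard error 0.68, edgeR adjusted p = 0.0760). Among the 12 risen genes 5 were called in PC3, and all 12 had a value above 0. A test of the difference between the lines over their 8 libraries called 0 genes of 15393 by edgeR, with 1455 at an unadjusted p under 0.05. The difference was 1.35 for DCP2 (HeyA8 minus PC3, standard error 0.37, unadjusted p = 0.00701 in edgeR, adjusted p = 0.357), where HeyA8 had 1.49 and PC3 0.15. For TGM2 it was -1.06 (standard error 0.69), for HMGA1 0.80 (standard error 0.56) and for EHD2 -0.51 (standard error 0.73). No difference between the lines passed the test with 2 libraries a side, which does not show that the lines responded alike.

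**Figure D5:**
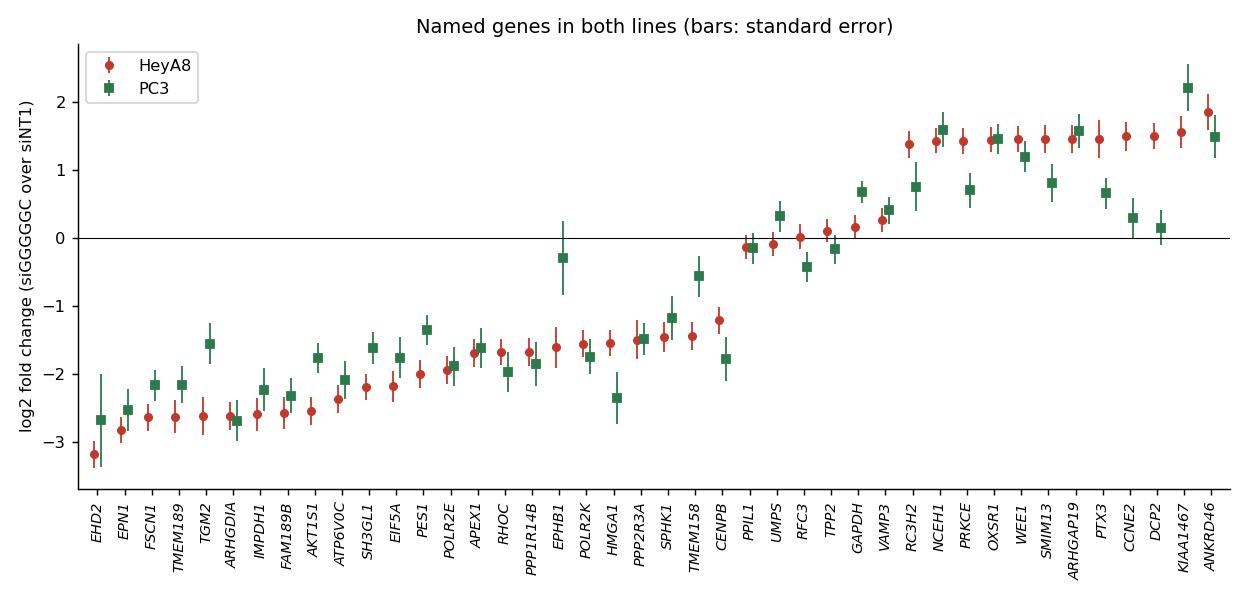
Log2 fold change of siGGGGGC over siNT1 with its standard error for the 42 named genes tested in both HeyA8 (circles) and PC3 (squares), ordered by the HeyA8 value. All lowered genes also lie below 0 in PC3, EPHB1 (-0.30) and TMEM158 (-0.57) least. The 6 control genes lie between -0.14 and 0.26 in HeyA8 and between -0.43 (RFC3) and 0.67 (GAPDH) in PC3. DCP2 and CCNE2 lie at 1.49 in HeyA8 and at 0.15 and 0.29 in PC3.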

How the data were processed

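RNA-seq counts of 16 libraries were deposited as 1 table of whole-number read counts per gene for 26485 genes, without normalization. Libraries were made from total RNA after removal of ribosomal RNA. According to the study, read ends were trimmed, alignment to hg38 used TopHat or STAR, and HTSeq assigned reads in exons to Ensembl genes. The submitters' processing notes name STAR, HTSeq and hg38. The strand setting is not given in the sources used here, so overlapping and antisense genes cannot be told apart. The count table also has a column with the exonic length of each gene, which belongs to no sample. The members, gene lists and the rule for named genes were chosen with earlier results of these data known.

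The main test was edgeR 4.0.16 (R 4.3.3) on the 4 HeyA8 libraries with siGGGGGC or siNT1, with genes kept by filterByExpr, TMM scaling, siRNA and time point as terms, glmQLFit and glmQLFTest, and Benjamini-Hochberg adjustment over all genes tested. The coefficient of variation was 18.1%, with 1 residual and 33.3 prior degrees of freedom. Standard errors are the log2 fold change divided by the root of the F statistic. Values at 1 time point are log2 of normalized counts plus 1 and have no test. The time points come from the labels. Over 10531 genes the 24 minus 48 h differences correlated between siGGGGGC and siNT1 with r = 0.218 and between siNT1 and mock with r = 0.583, and without the time term 54 genes were lower and 4 higher.

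3′ UTRs were the longest annotated for each gene (GENCODE v44, hg38). A direct match was found for 23118 symbols and one by an older name for 1421, leaving 1946 without one. The matched genes include 1005 listed on alternate contigs, for which symbol and chromosome alone were compared. Shifts by seed match are differences of medians, without a test.

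Named genes were the 10 genes and 6 controls of the study, the 12 largest decreases with GCCCCC and the 5 without, the 12 largest increases (all called, with a mean over 1000 normalized counts and the same direction at both times), and from each list up to 3 members called in each direction and the most abundant. Some genes are not reported here. The edgeR step was tested on simulated data. Alternatives were DESeq2 1.42.0, RLE size factors, other filters, a 2-fold threshold, mock as the control, other sets of libraries, no time term, each library left out, and other transcripts. The mean of siNT1 and mock as the control was added after the data were seen.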

Additional observations from a re-analysis of the deposited data

Results flagged for a closer look

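No group had enough libraries to look for outlying samples. TPP2, an exopeptidase and a control gene of the study, was singled out because its log2 fold changes were above 0 at both time points in HeyA8 cells, 0.217 at 24 h and 7.73e-05 at 48 h, and below 0 in PC3 cells, -0.224 at 24 h and -0.116 at 48 h. It was called in neither line, and the edgeR test of the difference between the lines gave 0.28 (standard error 0.25, adjusted p = 0.777).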

How the results depend on the processing

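The 769 lower and 411 higher genes of HeyA8 cells became 347 and 130 with the mock libraries added to the fit, 0 and 0 with all 8 HeyA8 libraries, 501 and 216 with DESeq2, 411 and 154 at a threshold of 2-fold, 265 and 116 with mock as the control, and 419 and 251 with the mean of siNT1 and mock, an alternative chosen after seeing the data. Without the replicate block (no term for time) 54 were lower and 4 higher. RLE size factors left 257 genes higher. Leaving out 1 library in the fit with mock gave 58 to 3321 lower and 0 to 3147 higher genes. The lowest counts came without the siNT1 library of 48 h, the highest without the siGGGGGC library of 24 h, and without that of 48 h there were 1178 and 646, where the lone library of an siRNA was assumed to vary like the others. In PC3 cells the 363 and 75 genes became 908 and 555 with all 8 libraries, and 0 and 0 without the block. The difference between the lines called 0 genes under both sets of libraries (1054 at an unadjusted p under 0.05 by edgeR with all 16).

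Of the 37 called genes named for their own change, all 37 kept their direction under every alternative. All 37 were called with RLE size factors, with both other filters, and without the siGGGGGC library of 24 h. In the fit with all 8 libraries 0 were called, in the fit with mock added 32, without the block 13, and without the siNT1 library of 48 h 12. VLDLR ranged from -0.012 without the siGGGGGC library of 48 h to 1.78 without that of 24 h, and FOSL1, at 0.050 and not called, from -0.34 to 0.43. In both the cause was not tested.

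The shift of the median with GCCCCC was -0.15 and stayed below 0 throughout. It was -0.089, -0.056, -0.088 and -0.21 within 4 groups of GC content, -0.27, -0.26 and -0.19 within the 3 groups of shorter 3′ UTRs, -0.11 with mock as the control, -0.13 with siNT1 and mock, and -0.18 to -0.12 with 1 library left out. Depth was similar in all libraries, and genes with few counts, such as EGR1, have wide errors.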

Other observations

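With both siGGGGGC libraries all calls among splicing, protein folding and lysosomal genes were decreases. Median log2 fold changes without the 24 h library were -0.0373 for splicing, -0.291 for heat shock, 0.132 for lysosome and -0.0464 for respiratory chain genes. Without the 48 h library they were -0.00834, -0.0442, -0.043 and -0.0822 in the same order. With both libraries the share called lower was 8.89% of the splicing, 8.70% of the heat shock and 2.22% of the respiratory chain list. For all genes it was 5.78%, and in the lysosome list 3 of 30 genes were lower. Of 45 splicing factors 4 fell and 0 rose, and all 4 have GCCCCC in the 3′ UTR. SF3A2, a subunit of the U2 particle, had 3212 and 2229 normalized counts after siNT1 and 760 and 500 after siGGGGGC (log2 fold change -2.12, standard error 0.20), SF3A1 had -1.11 and SNRPA -0.74. HNRNPA2B1, the most abundant of the list, had 0.070 and was not called. Of 23 heat shock and chaperonin genes HSF1, the heat shock transcription factor, fell by 1.20 on the log2 scale and HSPB1, a small heat shock protein, by 0.94. HSP90AA1 had 0.35 and was not called, and 21 of the 23 values were below 0.

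Of 30 lysosomal genes ATP6V0C, the cathepsin CTSL (-0.89) and TPP1 (-0.60) fell, all with GCCCCC, and 1 was lower with mock added or as the control, while CTSB, the most abundant, had -0.069. Of 45 respiratory chain subunits only ATP5D, a subunit of ATP synthase, was called, with 2473 and 1801 normalized counts after siNT1, 1512 and 1149 in mock, and 1090 and 1016 after siGGGGGC. Of 28 glycolysis and hypoxia genes P4HA1, which hydroxylates collagen, rose by 0.82 and ENO2, a neuronal enolase, by 0.75, and none fell (0 called with mock added to the fit). The share called higher was thus 7.14%, beside 3.09% of all genes. The median log2 fold change of this list was 0.215 with both siGGGGGC libraries. It was 0.433 without the 24 h library and -0.00325 without the 48 h library. The siRNA groups overlapped for P4HA1 and TPP1.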
